A study of Mus musculus with 18 samples.

Results

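The comparison described here is between kidney cortex of PTKO mice and of fl/fl mice, both given the toxin aristolochic acid I for 2 weeks. It rests on 6 libraries, PTKO AA 2wk numbers 1 to 3 and fl/fl AA 2wk numbers 1 to 3, of the 18 libraries in the study. The table lists 24062 genes, and the 13624 that reached 1 RPKM in 3 or more of the 18 libraries were tested. RPKM is the read density of a gene scaled by its length and by library depth. All mice were C57Bl/6. The fl/fl mice (Klf15fl/fl) carry floxed alleles of Klf15, and the PTKO mice (Klf15PTKO) lack the gene in the proximal tubule. The other libraries, 3 for each genotype in each case, come from mice given the vehicle DMSO and from mice that had 2 further weeks of remodeling after the toxin (AA 4wk). Not given in the sources used here are the Cre line, the exons removed, the age of the mice and whether replicates are separate mice. The p-values therefore measure the spread between libraries, which may be technical. None of the labelled groups carries Cre with intact Klf15, so loss of Klf15 and presence of Cre cannot be told apart.

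Klf15 is a zinc finger transcription factor of the Krüppel-like family, whose members bind GC-rich and CACCC-type DNA. It is known for driving the breakdown of amino acids and the use of fat in liver, muscle and heart. The proximal tubule reabsorbs solutes with energy taken mostly from fat oxidation. Aristolochic acid enters these cells through organic anion transporters and forms DNA adducts, which makes the proximal tubule the main site of its injury.

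After 2 weeks of toxin a single gene fell in the comparison across all genes, the purine salvage enzyme Hprt. A second fit compared libraries of the same number as pairs, a pairing taken from the data and not from the labels. In that fit 18 genes rose and 32 fell, together 0.367% of the 13624 tested. Apart from Hprt, none of them was called without the pairs, where their adjusted p-values were 0.153 to 0.868 (limma). The genes that fell included Hpd and Aadat, which break down amino acids, the brush border protease gene Mep1b and the lactate carrier gene Slc5a8. The genes that rose included the epithelial barrier genes Sprr2f and Sprr2g and the macrophage gene Emr1. In bulk cortex, fewer cells of a type and less RNA per cell cannot be told apart.

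The libraries themselves differed within each genotype. Recovered depth was 17.2, 17.2 and 12.5 M reads in fl/fl and 18.4, 14.4 and 12.4 M in PTKO. The libraries numbered 3 stood apart in both genotypes. Relative to the fl/fl DMSO mean, the mean log2 level of 29 tubule injury genes was 2.69 in fl/fl number 3 and 2.5 in PTKO number 3, against 3.38 to 3.86 in the other 4. Both were thus less injured by this measure than the rest. The 36 proximal tubule markers stood at -1.22 and -1.46 in the libraries numbered 3 and from -2.25 to -1.56 in the others. PTKO number 3 was also low in 32 matrix genes, at 0.3 against 1.33 to 2.8 in the other 5 libraries, and high in 10 podocyte markers, at 1.69 against 0.53 to 0.88. The labelled tissue was carried by its markers in all 6 libraries, with Umod of the thick ascending limb between 1159 and 4756 RPKM and Nphs1 of the podocyte between 6.62 and 32.1 RPKM. All 18 libraries had Ddx3y, a gene of the Y chromosome, at 9.82 to 15.8 RPKM and Xist, which marks an inactive X chromosome, at no more than 0.0158 RPKM.

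**Figure D1:**
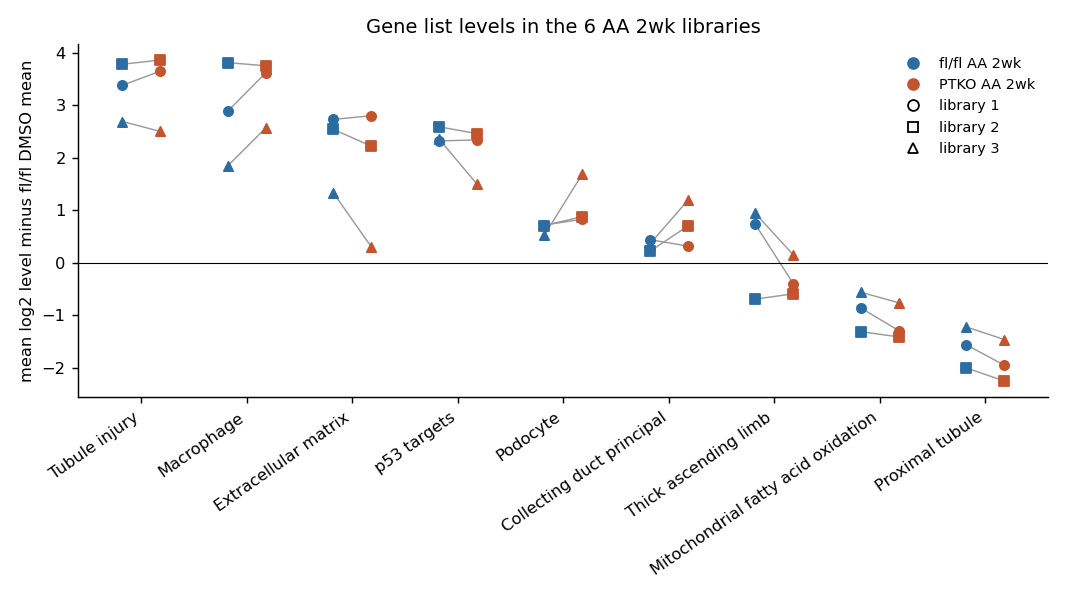
Mean log2(RPKM + 1) of the tested members of 9 gene lists in each AA 2wk library, minus the mean of the fl/fl DMSO libraries (vertical axis), for fl/fl in blue and PTKO in red, with grey lines joining libraries of the same number. The triangles, libraries numbered 3, lie below the other libraries of their genotype for injury, macrophage and matrix genes and above them for proximal tubule and fatty acid oxidation genes.

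Klf15 itself was only partly lower in PTKO cortex. Its level was 22.9, 18.6 and 41.3 RPKM in fl/fl and 12.5, 17.5 and 25.6 RPKM in PTKO. The groups overlapped, since PTKO number 3 lay above fl/fl numbers 1 and 2, and each PTKO library lay below the fl/fl library of its number. The difference was -0.52 ± 0.26 on the log2(RPKM + 1) scale (SE, adjusted p = 0.763, limma with Benjamini-Hochberg adjustment), and with the pairs as a block the adjusted p was 0.168. Without fl/fl number 3 it was -0.20, so its size rests in part on that library. That fit kept PTKO number 3, the highest PTKO library, so it does not show the difference without both libraries numbered 3. In DMSO the 3 PTKO libraries (28.5 to 32.6 RPKM) lay below all 3 fl/fl libraries (53 to 65.5 RPKM). Since exons are not resolved in these values, the deletion itself cannot be read from them, and cells outside the proximal tubule keep Klf15 by design.

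Because the protein is known to bind such sequences, the 250 bases before the start of a gene were searched on both strands for CACCC and for GGGCGG. On the other strand the first reads GGGTG and the second, in turn, CCGCCC. Neither motif contains the other. The 5 promoters below are shown because Hprt is the one gene called without pairing, and Hpd, Azgp1, Cyp2j11 and Slc5a8 are among the genes with a paired call that are described further on. They were picked after their values were seen and are not a sample of the genes that fell. Sequences are from RefSeq on GRCm38.p6, 5′ to 3′ on the strand of the gene, with matches to either motif in capitals. They lie at chrX:52987828-52988077 (Hprt, plus strand), chr5:123182724-123182973 (Hpd, minus strand), chr5:137981271-137981520 (Azgp1, plus strand), chr4:96348681-96348930 (Cyp2j11, minus strand) and chr10:88885742-88885991 (Slc5a8, plus strand).
Hprt: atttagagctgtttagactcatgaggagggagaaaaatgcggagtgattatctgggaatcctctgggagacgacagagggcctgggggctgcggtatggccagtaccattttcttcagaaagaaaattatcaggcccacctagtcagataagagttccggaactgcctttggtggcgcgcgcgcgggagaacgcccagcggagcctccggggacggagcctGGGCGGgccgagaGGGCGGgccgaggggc
Hpd: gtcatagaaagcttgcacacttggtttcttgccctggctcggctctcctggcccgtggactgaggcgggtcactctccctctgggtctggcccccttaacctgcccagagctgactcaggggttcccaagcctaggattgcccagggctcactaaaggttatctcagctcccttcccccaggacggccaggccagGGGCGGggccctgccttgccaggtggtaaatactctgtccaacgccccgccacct
Azgp1: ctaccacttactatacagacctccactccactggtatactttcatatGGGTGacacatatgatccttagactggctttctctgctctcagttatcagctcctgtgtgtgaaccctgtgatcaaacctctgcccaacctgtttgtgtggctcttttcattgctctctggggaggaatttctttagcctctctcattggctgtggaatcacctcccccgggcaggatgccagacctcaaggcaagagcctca
Cyp2j11: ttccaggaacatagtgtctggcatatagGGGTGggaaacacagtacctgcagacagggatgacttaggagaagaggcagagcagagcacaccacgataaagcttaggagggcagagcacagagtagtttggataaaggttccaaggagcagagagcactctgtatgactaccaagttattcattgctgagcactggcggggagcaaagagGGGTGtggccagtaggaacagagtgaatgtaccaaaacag
Slc5a8: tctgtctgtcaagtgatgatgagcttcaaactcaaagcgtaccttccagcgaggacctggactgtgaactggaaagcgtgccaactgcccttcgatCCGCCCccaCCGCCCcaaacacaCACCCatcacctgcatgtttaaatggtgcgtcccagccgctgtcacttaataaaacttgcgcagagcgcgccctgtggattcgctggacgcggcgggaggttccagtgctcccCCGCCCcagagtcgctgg
Hprt had 2 matches to GGGCGG and Hpd 1, and neither had one to CACCC. Azgp1 had 1 and Cyp2j11 2 matches to CACCC, and Slc5a8 had 1 match to CACCC and 3 to GGGCGG. Of the 10200 tested genes with a promoter entry, 57.6% held CACCC and 58.3% held GGGCGG in this window. Of the 25 entries among genes that fell in the paired fit, 16 (64.0%) held CACCC and 9 (36.0%) held GGGCGG, and of the 9 entries among genes that rose, 2 (22.2%) held each. These are matches of letters only.

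Hprt returns hypoxanthine and guanine to the nucleotide pool and is a common reference gene in expression work. It measured 88.1, 106 and 91.8 RPKM in fl/fl and 7.02, 8.15 and 7.29 RPKM in PTKO. Every PTKO library lay far below every fl/fl library, with 12.7-fold between the means. The log2 difference was -3.50 ± 0.14 (95% interval -3.80 to -3.21, adjusted p = 1.37e-09, limma). It was the 1 gene of 13624 called, 0.00734% of those tested, and in the paired fit its 3 pair differences were -3.47, -3.55 and -3.49. The gene lies on chromosome X, 52988137 to 53021659, plus strand (GENCODE on GRCm38). In DMSO the difference was -1.61 ± 0.14 and at AA 4wk -3.56 ± 0.14. The difference at AA 2wk exceeded that in DMSO by -1.90 ± 0.20 (adjusted p = 0.00108). In fl/fl cortex Hprt measured 48.4 to 61.6 RPKM in DMSO and in PTKO cortex 15.1 to 20.9 RPKM, so the fl/fl level was higher and the PTKO level lower at AA 2wk.

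The other 19 purine genes gave differences of -0.27 to 0.71. Of the 20 genes of purine salvage and synthesis, Hprt included, 14 were lower and 6 higher, with a median of -0.06, equal to the median of -0.06 over all tested genes. Aprt, which salvages adenine, gave -0.09 ± 0.10 (adjusted p = 0.93), and Prps2, which makes the ribose phosphate donor that Hprt uses, gave -0.27 ± 0.10 (adjusted p = 0.598). All 3 PTKO libraries of Prps2 (29.2, 32.0 and 30.5 RPKM) lay below all 3 fl/fl libraries (35.3, 33.0 and 43.9 RPKM). Gda, which deaminates guanine, gave 0.71 ± 0.34 (adjusted p = 0.748).

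Gpc3, a cell surface heparan sulfate proteoglycan, lies 374 kb before the start of Hprt on chromosome X (52272426 to 52613950, minus strand). It measured 21.8, 32.2 and 27.2 RPKM in fl/fl and 38.5, 56.6 and 50.4 RPKM in PTKO, with no overlap. The difference was 0.82 ± 0.18 (adjusted p = 0.26), and with the pair block it rose with an adjusted p of 0.0199. Its difference was 1.16 in DMSO and 0.76 at AA 4wk. The other 8 tested genes that start within 1000000 bases of Hprt or Gpc3 gave log2 differences of -0.43 to 0.22, and none of them was called in either fit.

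The remaining genes known to differ between the genotypes in DMSO behaved differently after the toxin. Tmem86a, an enzyme of lysoplasmalogen breakdown, measured 17.4, 16.0 and 21.7 RPKM in fl/fl and 12.8, 14.0 and 9.85 RPKM in PTKO. It was lower in all 3 PTKO libraries (-0.55 ± 0.14, adjusted p = 0.348), while in DMSO it was higher in PTKO (0.86 ± 0.14, adjusted p = 0.0399). The change of its genotype difference from DMSO to AA 2wk was -1.42 ± 0.20 (adjusted p = 0.0181). Tmem86a and Hprt were the 2 genes called in this contrast, 0.0147% of those tested. Without fl/fl AA 2wk number 1 a single call was left in that contrast. Smarca2, a chromatin remodeling ATPase, gave 0.00 ± 0.09 at AA 2wk and Fam102a -0.08 ± 0.07.

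**Figure D2:**
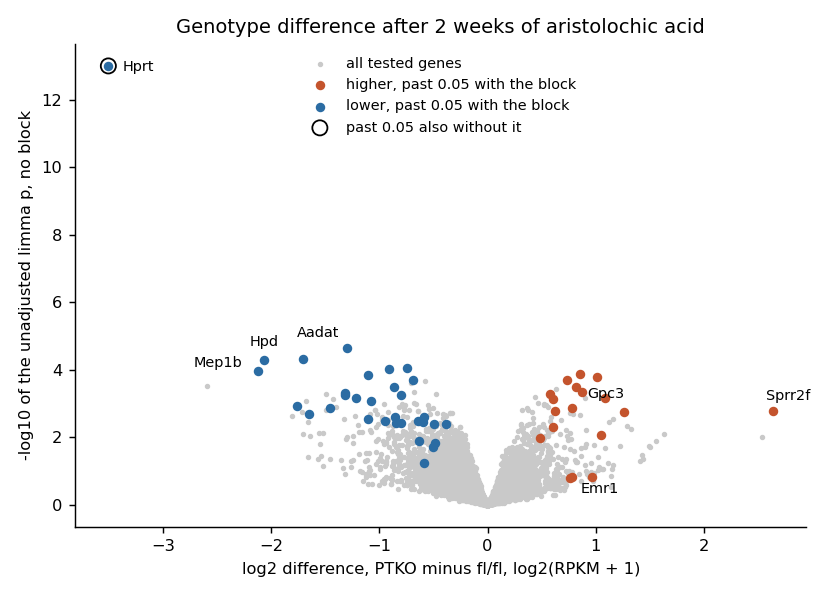
Log2 difference between PTKO and fl/fl cortex at AA 2wk on the log2(RPKM + 1) scale (horizontal axis) against -log10 of the unadjusted limma p without the pair block (vertical axis) for all 13624 tested genes in grey. The 18 genes that rose and 32 that fell in the paired fit are in red and blue, and Hprt, circled, is the one gene called without pairs, at -3.50.

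Pairing by number brought out further genes. The deviations of libraries from their group means correlated across genes at 0.44, 0.43 and 0.66 within the pairs numbered 1, 2 and 3. Yet fl/fl number 2 correlated at 0.53 with PTKO number 1, so the pairs numbered 1 and 2 are not clearly matched. The labels do not say what the numbers share. With the number as a block, 50 genes were called, 0.367% of those tested, and each of the 50 differed in the same direction in all 3 pairs. The spread in that fit was estimated over all 18 libraries and so does not come from the AA 2wk pairs alone. With the block in the 6 AA 2wk libraries alone, 4 genes were called. Among all tested genes 8.1% were higher and 20.5% lower in all 3 pairs. Without the block the other 49 genes had adjusted p-values from 0.153 to 0.868. The libraries of 10 of the 18 genes that rose and of 19 of the 32 that fell did not overlap between the genotypes, against 1.95% and 4.74% of all tested genes. The 50 genes were selected on these same libraries, so neither comparison with all tested genes is separate support for them. The count was 4 without the pair numbered 1 (3 of them among the 50), 240 without the pair numbered 2 (46 among the 50) and 2 without the pair numbered 3 (both among the 50). In all 3 of these fits all 50 genes kept their direction, which follows from their agreement in all 3 pairs and is no further check.

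The first genes described act on amino acids or their derivatives. They were put together after their values were seen, and Hpd alone among them belongs to a gene list counted here. Aadat, an aminotransferase of lysine and kynurenine breakdown, measured 60.6, 37.5 and 72.4 RPKM in fl/fl and 22.8, 19.0 and 23.6 RPKM in PTKO. No PTKO library reached the lowest fl/fl library. The difference was -1.30 ± 0.21 (adjusted p = 0.153, and 0.00687 with the block). Hpd, the dioxygenase of tyrosine breakdown, measured 3.12, 1.41 and 9.37 RPKM in fl/fl and 0.0798, 0.102 and 0.177 RPKM in PTKO. These PTKO values stand for 2, 2 and 3 recovered reads, against 33 to 159 in fl/fl. Its difference was -2.07 ± 0.37 (adjusted p = 0.178, and 0.0122 with the block). Ccbl2, a kynurenine aminotransferase, measured 15.0, 11.1 and 18.4 RPKM in fl/fl and 8.70, 8.62 and 7.64 RPKM in PTKO, again without overlap (-0.74 ± 0.14, 0.0273 with the block). Pm20d1, which joins fatty acids to amino acids, measured 24, 16.2 and 30.6 RPKM in fl/fl and 10.3, 10.8 and 14.4 RPKM in PTKO (-0.91 ± 0.17, 0.00574 with the block).

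Counts and medians of gene lists are given as descriptions, with no test, beside all tested genes, of which 66.4% were lower. Of all tested genes 20.5% were lower in all 3 pairs and 0.367% were called with the block. In a list of 25 tested genes of amino acid breakdown other than the branched-chain pathway, which does not hold Aadat, Ccbl2 or Pm20d1, 17 were lower and 8 higher. Its median of -0.21 became -0.12 without both libraries numbered 3. Hpd was its single member called with the block. Hao2, a peroxisomal hydroxyacid oxidase, gave -0.78 ± 0.24 (0.0616 with the block) and Gpt, the alanine aminotransferase, -0.59 ± 0.16 (0.107 with the block), both without overlap between the genotypes. All 23 tested genes of branched-chain amino acid breakdown were lower, 16 of them in all 3 pairs, with a median of -0.35 against -0.06 for all tested genes. Without both libraries numbered 3 these medians were -0.21 and -0.02. One of the 23 was called with the block. It was Ivd, the isovaleryl-CoA dehydrogenase of leucine breakdown, at 76.7, 55.8 and 104 RPKM in fl/fl and 41.7, 46.9 and 59.1 RPKM in PTKO (-0.64 ± 0.18, adjusted p = 0.427, and 0.049 with the block). Its groups overlapped by 1 library, since PTKO number 3 lay above fl/fl number 2. Hibch, of valine breakdown, gave -0.44 ± 0.14 and Aldh6a1, its partner further down the pathway, -0.38 ± 0.26, with adjusted p-values of 0.0977 and 0.234 with the block. The median of the list was -0.16 in DMSO and -0.42 at AA 4wk, where 18 and 22 of the 23 were lower.

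Fat oxidation genes were lower by small amounts and none was called in either fit. All 28 tested genes of mitochondrial fatty acid oxidation were lower in PTKO, with differences from -0.98 to -0.03 and a median of -0.19. In all 3 pairs 14 of them were lower, against 20.5% of all tested genes. The list means in the 3 pairs differed by -0.43, -0.10 and -0.20. Acadm, the medium-chain dehydrogenase, measured 176, 109 and 175 RPKM in fl/fl and 109, 96.5 and 133 RPKM in PTKO. The groups overlapped, and the difference was -0.42 ± 0.19 (adjusted p = 0.733, and 0.235 with the block). Hadhb, a subunit of the trifunctional protein of the same pathway, gave -0.34 ± 0.13 (0.155 with the block). Cpt1a, the entry enzyme for long-chain fat, gave -0.16 ± 0.23, with equal levels of 154 RPKM in both libraries numbered 3. Cpt1a falls outside the rule for named genes and was added as the best known gene of the pathway.

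Peroxisomal lipid genes were lower in 22 of 23 cases, with a median of -0.20. Acox2, which shortens branched chains and bile acid precursors, measured 14.8, 8.85 and 18.6 RPKM in fl/fl and 6.83, 6.20 and 6.99 RPKM in PTKO (-0.92 ± 0.30, 0.219 with the block). It was the single member of that list without overlap, where 4.74% of all tested genes were lower without overlap. The fatty acid importer Slc27a2 gave -0.57 ± 0.29. Of 21 PPAR-alpha and lipid-responsive genes, 13 were lower, with a median of -0.31 that became -0.19 without both libraries numbered 3. They included Pdk4, a kinase that turns off pyruvate oxidation (-1.09 ± 0.34), Fabp4, a fatty acid binding protein (-0.76 ± 0.27), and the lipid droplet gene Plin2 (-0.34 ± 0.13), with adjusted p-values of 0.143, 0.181 and 0.235 with the block. Of 42 oxidative phosphorylation genes 40 were lower, with a median of -0.11, and of 20 citric acid cycle genes 19 were lower, with a median of -0.10. Scaling by the median of ratios moved the median of all genes from -0.06 to -0.01, and these 5 medians to -0.13, -0.14, -0.25, -0.05 and -0.04.

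**Figure D3:**
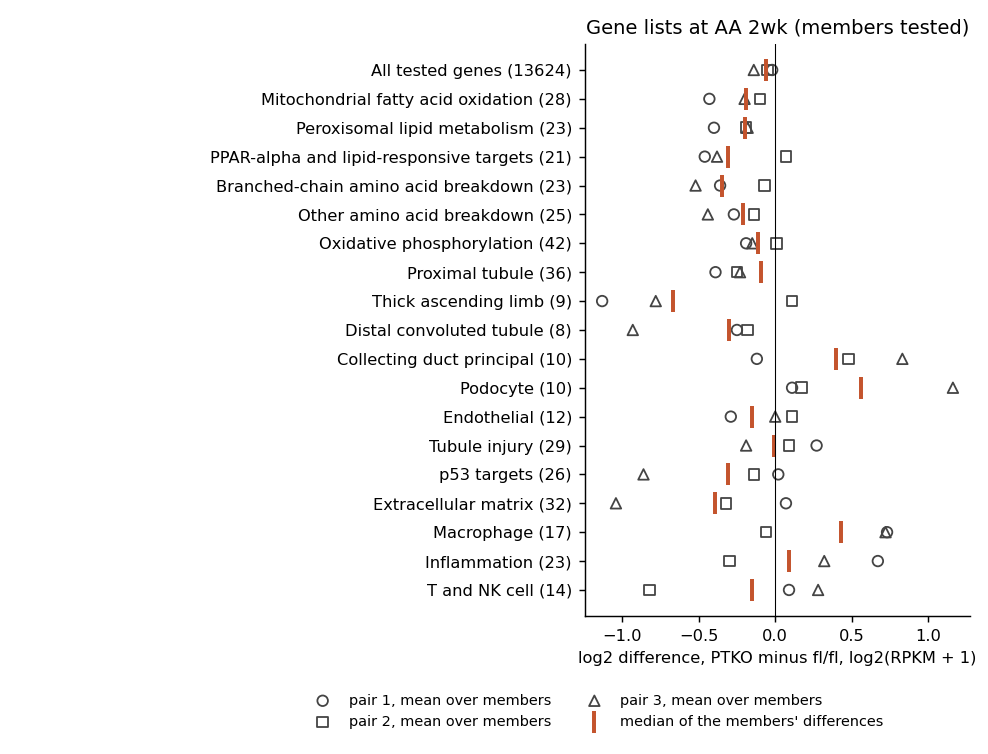
Log2 difference between PTKO and fl/fl cortex (horizontal axis) for gene lists, with the number of tested members in brackets. Red bars are medians of the members' differences and open symbols the mean difference within each pair of equally numbered libraries, which lie on both sides of zero for injury, matrix, inflammation and T cell genes and below zero for both fat oxidation lists and both amino acid lists.

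Among the genes with the largest differences that fell in the paired fit were transporters and enzymes, put together here after their values were seen. Mep1b, the beta subunit of the brush border protease meprin, measured 35.8, 12.2 and 23.0 RPKM in fl/fl and 8.90, 2.38 and 3.28 RPKM in PTKO. No PTKO library reached a fl/fl library. The difference was -2.12 ± 0.40 (adjusted p = 0.204, and 0.00686 with the block). Slc5a8, a sodium-coupled carrier of lactate, measured 17.2, 6.31 and 7.56 RPKM in fl/fl and 6.32, 2.29 and 1.31 RPKM in PTKO. Only PTKO number 1 and fl/fl number 2 touched, and the difference was -1.45 ± 0.37 (adjusted p = 0.348, and 0.00687 with the block). Slc5a10, a sodium-coupled sugar carrier, measured 32.6, 11.1 and 25.8 RPKM in fl/fl and 11.6, 7.14 and 7.52 RPKM in PTKO (-1.21 ± 0.28, 0.0149 with the block). Slc22a19, an organic anion transporter, measured 30.0, 10.5 and 10.5 RPKM in fl/fl and 8.48, 4.04 and 1.79 RPKM in PTKO (-1.65 ± 0.44, 0.0301 with the block).

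The steroid enzyme genes Akr1c14 and Akr1d1 fell as well. Akr1c14, a hydroxysteroid dehydrogenase, measured 33.5, 10.9 and 16.3 RPKM in fl/fl and 9.75, 2.45 and 3.92 RPKM in PTKO (-1.76 ± 0.44, 0.0262 with the block). Akr1d1, a steroid reductase, measured 19.2, 7.84 and 15.8 RPKM in fl/fl and 6.17, 2.76 and 6.15 RPKM in PTKO (-1.32 ± 0.30, 0.00725 with the block). In both genes the genotypes did not overlap, and in both the highest library of each genotype was number 1 and the lowest number 2. A4gnt, a glycosyltransferase, gave -1.31 ± 0.30 (0.0179 with the block). Cyp2j11, a cytochrome P450, measured 49.3, 31.3 and 66.8 RPKM in fl/fl and 19.3, 18.8 and 26.4 RPKM in PTKO (-1.11 ± 0.22, adjusted p = 0.217, and 0.00687 with the block). Azgp1, a secreted glycoprotein linked to fat mobilisation, measured 5.63, 4.64 and 11.1 RPKM in fl/fl and 0.580, 1.96 and 1.78 RPKM in PTKO, without overlap (-1.71 ± 0.30, adjusted p = 0.178, and 0.0149 with the block). Nqo1, a quinone reductase that can act on aristolochic acid, measured 48.4, 29.2 and 79.8 RPKM in fl/fl and 27.6, 22.1 and 30.5 RPKM in PTKO (-0.85 ± 0.25, 0.0273 with the block). Its groups overlapped. The Akr1c, Cyp2j, Slc22a and Sprr2 genes belong to families of near copies, and how shared reads were assigned is not given in the sources used here, so values of single members are uncertain.

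The list of proximal tubule markers held none of the called genes. Of its 36 tested members 21 were lower and 15 higher, with a median of -0.09. Without overlap 5 were lower and 1 higher, against 4.74% and 1.95% of all tested genes. The lower ones included Slc7a13, an amino acid carrier of the straight segment (-1.81 ± 0.49, 0.0604 with the block), Napsa, an aspartic protease (-1.68 ± 0.40, 0.0518), Cyp7b1, an oxysterol hydroxylase (-1.72 ± 0.45, 0.0871), and Slc22a7, an organic anion transporter (-1.64 ± 0.55, 0.143). Kap, an androgen-regulated tubule gene, measured 5127, 1343 and 1951 RPKM in fl/fl and 1529, 618 and 410 RPKM in PTKO (-1.70 ± 0.55, 0.105 with the block), with PTKO number 1 above fl/fl number 2.

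**Figure D4:**
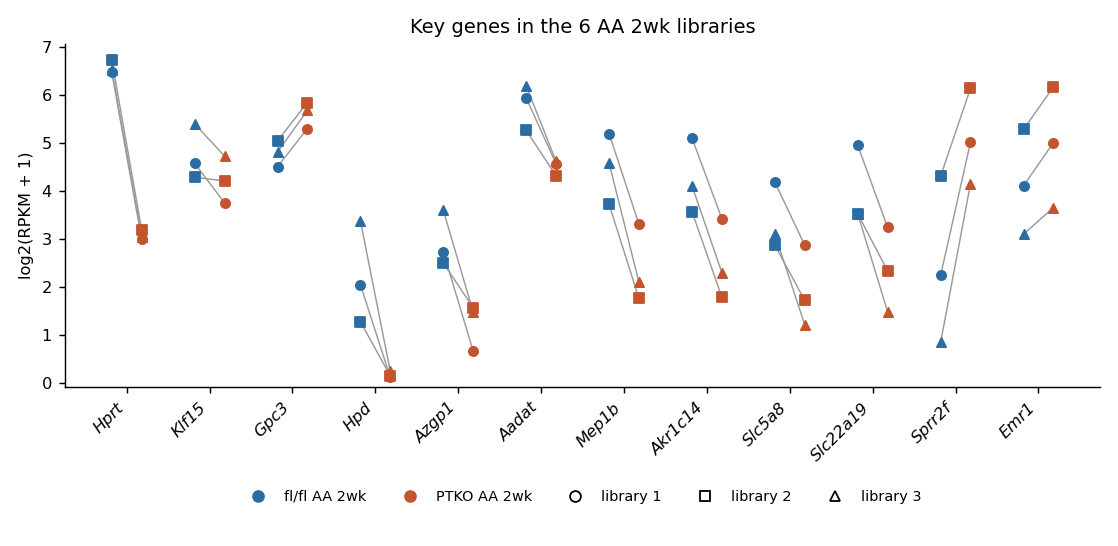
Level of 12 genes in the 6 AA 2wk libraries as log2(RPKM + 1) (vertical axis), fl/fl in blue and PTKO in red, with grey lines joining libraries of the same number. Lines fall for the genes from Hprt to Slc22a19, apart from Gpc3, and rise for Gpc3, Sprr2f and Emr1, while the groups overlap for Klf15, Slc5a8, Sprr2f and Emr1.

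Injury genes were split in direction at AA 2wk, though those that differed alike in all 3 pairs were higher. Of 29 injury genes 14 were higher and 15 lower, with a median of -0.01 that became 0.11 without both libraries numbered 3. The 3 pairs gave mean differences of 0.27, 0.09 and -0.19. In the paired fit 1 of the 29 rose, where 0.367% of all tested genes were called in either direction. In all 3 pairs 8 were higher and 0 lower, against 8.1% and 20.5% of all tested genes. Without overlap 4 were higher and 0 lower, against 1.95% and 4.74% of all tested genes. The medians of the list were 0.29 in DMSO and 0.31 at AA 4wk, where 1 and 3 of the 29 were lower. The members described next were not called in either fit. Krt19, a keratin of simple epithelia, measured 8.40, 9.90 and 2.75 RPKM in fl/fl and 13.2, 26.8 and 13.3 RPKM in PTKO (1.29 ± 0.39, 0.0977 with the block). Krt7, another such keratin, gave 0.56 ± 0.18 (0.192 with the block). The lipocalin Lcn2, released by damaged tubules, measured 353, 544 and 99.7 RPKM in fl/fl and 630, 1120 and 626 RPKM in PTKO (1.5 ± 0.57, 0.236 with the block). Havcr1, the kidney injury molecule, measured 433, 573 and 579 RPKM in fl/fl and 383, 579 and 58.7 RPKM in PTKO. Its difference of -1.15 ± 0.86 rests on PTKO number 3, without which it was -0.15. Lcn2 and Havcr1 fall outside the rule for named genes and were added as the common markers of tubule injury.

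Other genes that rose in the paired fit lay outside the injury list. Sprr2f, a small proline-rich protein of barrier epithelia, measured 3.73, 18.9 and 0.791 RPKM in fl/fl and 31.4, 69.8 and 16.8 RPKM in PTKO. The groups overlapped only between fl/fl number 2 and PTKO number 3, and the difference was 2.64 ± 0.69 (adjusted p = 0.348, and 0.0149 with the block). Its neighbour Sprr2g measured 9.76, 20.1 and 4.44 RPKM in fl/fl and 19.8, 31.3 and 15.3 RPKM in PTKO (1.05 ± 0.35, 0.0149 with the block). Muc4, a membrane mucin, measured 0.274, 0.407 and 0.0285 RPKM in fl/fl and 1.06, 1.41 and 0.722 RPKM in PTKO (0.74 ± 0.15, 0.0149 with the block). Oit1 gave 1.26 ± 0.33 (0.0301) and Myrf, a membrane-bound transcription factor, 0.86 ± 0.17 (0.0174), each without overlap. Npl, the sialic acid lyase, measured 53.8, 110 and 89.6 RPKM in fl/fl and 124, 141 and 158 RPKM in PTKO (0.78 ± 0.20, 0.0331 with the block). Lgmn, a lysosomal protease of tubule and macrophage, measured 599, 845 and 744 RPKM in fl/fl and 931, 1037 and 1386 RPKM in PTKO (0.61 ± 0.14, 0.0174 with the block), and was singled out after its values were seen.

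Macrophage markers had higher mean levels in PTKO cortex, but the genotypes overlapped and the list was not tested. All 17 markers were higher, with a median of 0.43, and 5 were higher in all 3 pairs, against 8.1% of all tested genes. The pairs gave mean differences of 0.73, -0.06 and 0.72. Relative to the mean of the AA 2wk libraries, the list was highest in fl/fl number 2, at 0.73, and stood at -0.51 in PTKO number 3. Emr1, which encodes the surface antigen F4/80, measured 16.3, 38.1 and 7.57 RPKM in fl/fl and 31.2, 71.2 and 11.6 RPKM in PTKO. The groups overlapped widely, yet each PTKO library lay above the fl/fl library of its number (0.78 ± 0.51, adjusted p = 0.86, and 0.0177 with the block). Emr1 was named after its values were seen, as the 1 macrophage marker called, where 0.367% of all tested genes were called with the block. Itgam, an integrin of myeloid cells, gave 0.80 ± 0.37 (0.0785 with the block), and lysozyme Lyz2 0.97 ± 0.72 (0.386 with the block). Chil3, a chitinase-like protein of activated macrophages, measured 0.416, 0.793 and 0.470 RPKM in fl/fl and 1.77, 4.84 and 1.20 RPKM in PTKO, without overlap (1.08 ± 0.26, 0.0157 with the block). Of 23 inflammation genes 15 were higher, with a median of 0.09. The chemokine Ccl7 rose in the paired fit (0.97 ± 0.63, adjusted p = 0.86, and 0.0262 with the block), while Il1b measured 2.94, 12.7 and 1.03 RPKM in fl/fl and 19.6, 13.1 and 7.35 RPKM in PTKO (1.49 ± 0.56, 0.19 with the block). T and NK cell markers were lower in 13 of 14 cases, with a median of -0.15 that became -0.38 without both libraries numbered 3, and none was called.

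Several lists moved with the libraries numbered 3. Of 26 p53 targets 23 were lower, with a median of -0.31 that became -0.10 without both libraries numbered 3. Mdm2, the p53 ligase and target, measured 91.2, 117 and 120 RPKM in fl/fl and 74.2, 94.0 and 26.9 RPKM in PTKO (-0.91 ± 0.30, 0.163 with the block), and Cdkn1a, the cell cycle inhibitor, gave -0.31 ± 0.18. Of 32 matrix genes 29 were lower, with a median of -0.39 that became -0.14 without both libraries numbered 3. Decorin, Dcn, measured 123, 66.4 and 39.3 RPKM in fl/fl and 83.9, 35.2 and 3.60 RPKM in PTKO (-1.52 ± 0.79, 0.247 with the block). Of 10 podocyte markers 9 were higher, with a median of 0.56 that became 0.18 without both. The slit diaphragm gene Nphs1 measured 7.07, 6.62 and 7.13 RPKM in fl/fl and 8.37, 9.64 and 32.1 RPKM in PTKO (0.91 ± 0.33, 0.175 with the block). Endothelial markers as a list did not move with PTKO number 3, where their mean level was 0.20 above the fl/fl DMSO mean, against 0.11 and 0.09 in PTKO numbers 1 and 2. Of the 12 markers 9 were lower, with a median of -0.15 that became -0.09 without both. Plvap, one of them, was low in that library alone (145, 105 and 129 against 114, 117 and 31.3 RPKM). The part of cell composition in the differences of single genes was not tested.

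Marker lists of the distal segments did not all differ in the same direction, and none of these lists was tested. All 9 thick ascending limb markers were lower, with a median of -0.67, though the pair numbered 2 gave a mean difference of 0.11 against -1.13 and -0.78 in the others. Egf, made by this segment and the next, measured 105, 19.8 and 259 RPKM in fl/fl and 21.8, 16.3 and 58.1 RPKM in PTKO (-1.54 ± 0.67, 0.108 with the block). Umod gave -0.67 ± 0.43 (0.33 with the block). All 8 markers of the distal convoluted tubule were lower, with a median of -0.30 that became -0.13 without both libraries numbered 3. Relative to the fl/fl DMSO mean, fl/fl number 3 stood at 0.06 and the other 5 libraries at -0.95 to -0.65. Without overlap 3 of the 8 were lower, against 4.74% of all tested genes, among them Pvalb (2.52, 2.06 and 15.0 against 0.783, 1.0 and 0.535 RPKM, 0.143 with the block). All 10 principal cell markers of the collecting duct were higher, with a median of 0.40 that became 0.18 without both libraries numbered 3. The pairs gave mean differences of -0.12, 0.48 and 0.83, and PTKO number 3 stood highest, at 1.19 against 0.22 to 0.70 in the other libraries. The water channel Aqp2 measured 123, 92.1 and 103 RPKM in fl/fl and 121, 185 and 313 RPKM in PTKO (0.86 ± 0.33, 0.308 with the block). Intercalated cell markers of the collecting duct went the other way, with 8 of 10 lower, 2 higher and a median of -0.12. None of these markers was called in either fit. Of 19 circadian genes 7 were higher and 12 lower, with a median of -0.02. The repressor Nr1d1 alone fell in the paired fit (-0.49 ± 0.14, 0.0369 with the block), where 0.367% of all tested genes were called. Per2 (0.48 ± 0.27) and Cry1 (0.41 ± 0.16) were higher without overlap, against 1.95% of all tested genes. Their adjusted p-values with the block were 0.502 and 0.281.

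**Figure D5:**
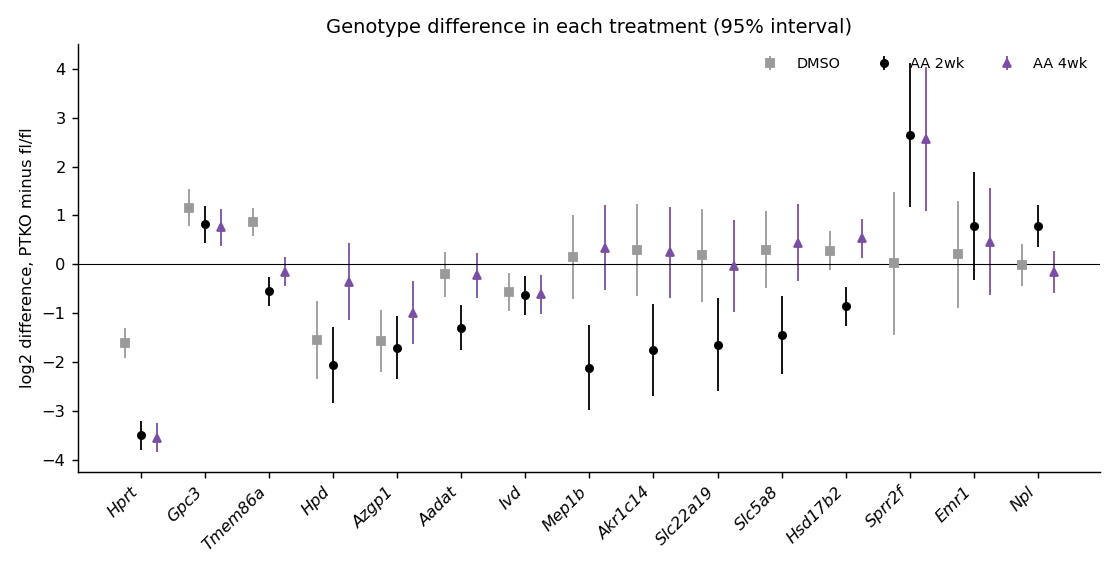
Genotype difference, PTKO minus fl/fl on the log2(RPKM + 1) scale, with its 95% interval (vertical axis) for 15 genes in DMSO (grey squares), AA 2wk (black circles) and AA 4wk (purple triangles), from the fit without pair block. Hpd and Azgp1 lay below zero in DMSO and at AA 2wk, whereas Mep1b, Akr1c14, Slc22a19 and Slc5a8 lay below zero at AA 2wk and near it in the other treatments.

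The genes that fell at AA 2wk differed in what they did in the other treatments, whose libraries are not among these 6. Hprt and Tmem86a alone were called for a change from DMSO, so the groups of genes below are descriptive. Hpd, Azgp1, Pm20d1, Ccbl2 and Ivd also had lower values in DMSO, with genotype differences of -1.55, -1.57, -0.70, -0.65 and -0.56. Mep1b, Akr1c14, Slc22a19, Slc5a8, Slc5a10, Akr1d1 and A4gnt had differences of 0.14 to 0.39 in DMSO and of -0.38 to 0.44 at AA 4wk. Over all 32 genes that fell, 18 were lower in DMSO and 23 at AA 4wk, where 46.4% and 42.1% of all tested genes were lower. Of the 18 that rose, 13 were higher in DMSO and 14 at AA 4wk, where 53.4% and 57.9% of all tested genes were higher. Sprr2f was at 0.225 RPKM or less in all DMSO libraries and gave 2.56 ± 0.69 at AA 4wk, with 10.4 to 39.4 RPKM in PTKO and 1.56 to 2.88 in fl/fl.

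The change of the genotype difference between AA 2wk and AA 4wk was tested directly. Without the block no gene was called by limma, and 442 had an unadjusted p under 0.05. With the block 5 genes were called, 0.0367% of those tested, each with an adjusted p of 0.0477. Slc5a8 differed by -1.89 ± 0.27 between the treatments, Mep1b by -2.46 ± 0.37 and Hsd17b2, a dehydrogenase of sex steroids, by -1.39 ± 0.22. Pdzk1ip1, a membrane protein of the proximal tubule, differed by 0.80 ± 0.13 and Renbp, the renin binding protein, by 0.63 ± 0.10. For Mep1b the genotype difference went from -2.12 at AA 2wk to 0.34 at AA 4wk, and for Pdzk1ip1 from 0.41 to -0.39. With the block and median-of-ratios scaling no gene was called in this contrast, so these 5 calls lie at the edge of the threshold.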

How the data were processed

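RNA from kidney cortex was made into stranded total RNA libraries, per the labels' protocols. The deposited values are RPKM per gene, per the file headers, with bcl2fastq 2.19, kallisto and the mm10 build listed in the submitters' processing notes. How reads were assigned to genes, and with which annotation, is not given in the sources used here. In all 17579 genes with at least 6 values above 0 (100.0%), whole read numbers were recovered from the steps between values, with a tolerance of 0.02 reads. Recovered depth was 11.0 to 21.9 M reads per library, and low genes are correspondingly less precise.

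Log2(RPKM + 1) values of all 18 libraries were fitted in limma 3.58.1 (R 4.3.3) with 6 group means and robust empirical Bayes moderation that follows an intensity trend. Tests were two-sided, with Benjamini-Hochberg adjustment over 13624 genes and calls at 0.05. A fold on the log2(RPKM + 1) scale understates the change of low genes. An exact permutation test of 3 against 3 libraries cannot go below 0.1 and was not used. Voom on recovered reads called 1 gene without the block.

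The replicate block, 2 terms for the library number within the AA 2wk groups, was used because same-numbered libraries deviated together at 0.44, 0.43 and 0.66, each above 0.1. This pairing comes from the data and not from the labels, and fl/fl number 2 deviated more closely with PTKO number 1 (0.53). The members and gene lists were chosen with earlier results of these data known. Named genes are Klf15 and the 5 genes called in DMSO, genes called in either fit (up to 10 each way for the block), for each list the 3 members with the smallest p and the 2 with the highest level, and the 10 genes each way with the smallest p. Genes with a changed treatment difference were named as well, and some genes that meet this rule are not reported here. Promoters and gene positions are from RefSeq and GENCODE on GRCm38, the same assembly as mm10. Alternatives covered scaling, filters, the pseudocount, library weights, the libraries fitted and each replicate left out.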

Additional observations from a re-analysis of the deposited data

Results flagged for a closer look

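A test of the interaction itself, in limma with Benjamini-Hochberg adjustment, called a treatment-dependent genotype difference for 7 genes. Of these, 2 were called without the replicate block and 5 only with it. Hprt changed by -1.90 from DMSO to AA 2wk (adjusted p = 0.00108), with PTKO below fl/fl in both. Tmem86a changed by -1.42 (adjusted p = 0.0181), from higher in PTKO in DMSO to lower at AA 2wk. With the replicate block, 5 genes differed between AA 2wk and AA 4wk, each with an adjusted p of 0.0477. Mep1b differed by -2.46, Slc5a8 by -1.89 and Hsd17b2 by -1.39, and in each of them PTKO was below fl/fl at AA 2wk and above it at AA 4wk. Pdzk1ip1 differed by 0.80 and Renbp by 0.63, with PTKO above fl/fl at AA 2wk and below it at AA 4wk. In the fit without the block, Hprt alone was called between the genotypes at AA 4wk. The direction of these 5 differences at AA 4wk is therefore uncertain. Without the block the adjusted p of these 5 was 0.93 each, and with the block and median-of-ratios scaling none of them was called.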

How the results depend on the processing

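The single call at AA 2wk, Hprt, kept its direction and its call under every alternative run, with differences from -3.67 to -3.42 and a largest adjusted p of 0.000477. The number of genes called at AA 2wk was 50 with the replicate block, 4 with that block in the 6 AA 2wk libraries alone, and 2 with a pseudocount of 0.1 or with any value above 0 in 3 libraries. It was 1626 with sample quality weights, whose estimate stopped before it converged and ran from 0.00425 to 16, so that count is not relied on. Together with the block, it was 77 with voom on recovered reads, 42 with median-of-ratios scaling and 21 with quality weights. With the block and without both libraries numbered 1, 2 or 3 it was 4, 240 and 2. With 1 replicate left out it ran from 1 to 110, the highest without fl/fl number 2. The alternatives that join the block to another choice were added after the data were seen.

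The 2 calls of AA 2wk against DMSO became 4 with quality weights, 11 with the block and voom, 277 with the block and quality weights, and 1 to 8 with a replicate left out. The 0 calls of AA 2wk against AA 4wk became 5 with the block, 5 with the block and voom, 140 with quality weights, and 0 to 1 with a replicate left out. The replicate block changed no other call between treatments.

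Smarca2, at 0.00, changed sign to -0.07 with quality weights, -0.03 with these and the block, -0.04 without both libraries numbered 3 in either fit, -0.00 with voom and the block, and -0.09 to 0.06 with a replicate left out. Cpt1a became 0.04 with the block and without the pair numbered 1, and -0.46 to 0.06 with a replicate left out. Of the 73 genes named, the others kept their direction under all alternatives. Depth limits genes such as Hpd, with 2 or 3 reads per PTKO library.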
